A study of Mus musculus with 16 samples.

Results

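The comparison described here sets cardiomyocytes of pressure-loaded hearts against cardiomyocytes of sham-operated hearts, all from animals that carried the same control virus. It uses 8 of the 16 RNA sequencing libraries of the study, 4 labelled vector sham and 4 labelled vector TAC, chosen by their labels and by no measured value. All the animals were C57BL/6 mice with the genotype given as WT, and all 8 had been injected with AAV9-Vector, an adeno-associated virus that serves as the control for the PRODH virus of the study. Surgery followed 3 weeks after the injection and was either a sham operation or transverse aortic constriction (TAC), a band that narrows the aorta. The cells were isolated from hearts collected 4 weeks after surgery. Age, sex, the promoter in the vector and any pooling of animals appear in no source used here, and nothing states that libraries with different numbers came from different animals. The p-values below therefore reflect only how these libraries vary, and part of that may be technical.

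Pressure overload makes the left ventricle work against a raised load, and cardiomyocytes respond by growing without dividing. The response is known for a return of genes of the fetal heart, among them natriuretic peptides, slow myosin and skeletal actin. It is also known for a loss of calcium-cycling and fatty acid oxidation genes and, in the tissue between the myocytes, for deposition of matrix by fibroblasts.

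The libraries held 15987580 to 21999305 counts in sham and 17015211 to 20033558 in TAC. Transcripts of the mitochondrial genome took 37.9% to 40.9% of the sham counts and 34.5% to 35.9% of the TAC counts. With nuclear copies of them included, the shares were 58.5% to 62.9% in sham and 53.2% to 55.8% in TAC. The cells carried the label cardiomyocyte, and the 15 cardiomyocyte markers examined were all present, with a summed level of 49084 to 54373 CPM in sham and 36425 to 38535 CPM in TAC. CPM is the count of a gene relative to the total of its library after TMM scaling, which sets libraries on a common scale by the bulk of their genes. Markers of other heart cells were present too, at sums from 260.1 to 417 CPM for fibroblasts in sham. Most of these lists were higher after TAC, as given with the matrix genes below. In such bulk libraries fewer cells of a type, less RNA per cell and a change in the marker genes themselves cannot be told apart. The cardiomyocyte markers include Atp2a2, Myh6, Pln and Tnni3, which are given below as lower after TAC.

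Most of the genes measured differed between TAC and sham. Of 14066 genes that passed a filter on low counts, 7949 (56.5%) differed between the groups at an adjusted p below 0.05 in the quasi-likelihood test of edgeR after Benjamini-Hochberg adjustment, and these are the genes said to be called. Of all genes tested, 30.3% were called higher after TAC (4263 genes) and 26.2% lower (3686 genes). These shares are the background for every count of genes given below. Rises were larger than falls: 1763 called genes (12.5%) rose by at least 1 on the log2 scale and 482 (3.43%) fell by as much. In 6631 genes (47.1%) the 4 TAC libraries lay wholly above or wholly below the 4 sham libraries. The median log2 difference over all genes tested was 0.02, with quartiles at -0.32 and 0.50. Dividing by library size alone, with no TMM factor, moved that median to 0.37 and the higher genes from 53.6% to 86.2% of the calls, so each change below is relative to the bulk of the genes. Of the genes given below as lower, Fos, Nampt, Ppargc1a, Prodh, Trdn, Trim63, Ttn, Tuba8, Tubb4b and Tubg1 were not called under that scaling. Nor were Cacna1c, Itga7 and Klf9, whose differences turned positive.

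The direction of change went with the level of the gene. Among the 56 genes with a mean of at least 1000 CPM, 43 fell (76.8%) and 5 rose. The 56 include transcripts of the mitochondrial genome and copies of them. Of 25 such genes tested at any level, 20 fell and none rose. Between 100 and 1000 CPM, 337 of 594 genes fell (56.7%) and 113 rose. Among the 6287 genes between 1 and 10 CPM the order was the other way round, with 2182 higher (34.7%) and 1232 lower (19.6%). The abundant genes of these cells are mostly those of contraction and energy supply. Of 697 long noncoding RNAs tested, 210 fell and 97 rose, while among 12751 protein-coding genes 3333 fell and 4097 rose. Outside the mitochondrial genome 41 genes with a standard symbol reached 1000 CPM in either group, and of these Nppa, Acta1 and Ankrd1 rose and Atp2a2 fell by at least 1 on the log2 scale.

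**Figure D1:**
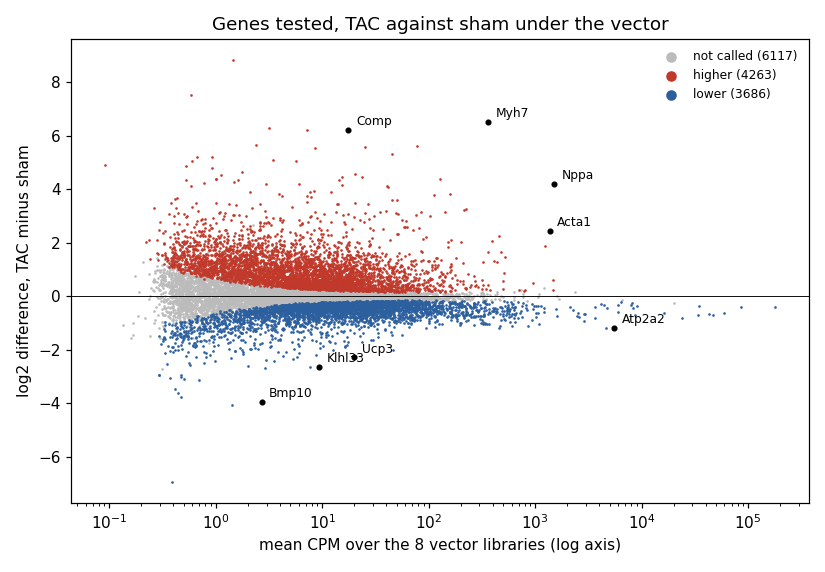
Each point is one of the genes tested, placed by its mean CPM over the 8 vector libraries (log axis) and its log2 difference of TAC minus sham; red points were called higher, blue points lower and grey points were not called. Red points spread upwards at low levels, blue points gather below 0 at high levels, and Myh7, Comp and Nppa stand at 6.52, 6.21 and 4.19.

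The genes of the fetal and stretch response named here rose without overlap of the groups. Nppa encodes atrial natriuretic peptide, a hormone released by loaded myocytes. Its level was 164, 159, 157 and 137 CPM in the 4 sham libraries and 2559, 2571, 3058 and 3119.9 CPM in the 4 TAC libraries. Nppb, the gene of B-type natriuretic peptide, stood at 166, 166, 155 and 147 CPM in sham and 690.4, 788, 764 and 750.3 CPM after TAC. In both genes every TAC library lay above every sham library. Nppa rose by 4.19 ± 0.10 (log2 ± SE, edgeR adjusted p = 1.05e-24) and Nppb by 2.24 ± 0.08 (adjusted p = 1.52e-20). Ankrd1, a stretch-responsive nuclear and titin-bound protein, went from 589, 517, 475 and 506 CPM to 2067, 2176, 1707 and 1783 CPM, a rise of 1.89 ± 0.08 (edgeR adjusted p = 7.00e-18). Acta1, the skeletal actin expressed in the fetal heart, had 369.9, 477, 424 and 425 CPM in sham and 2161, 2123, 2638 and 2346 CPM in TAC and rose by 2.45 ± 0.09 (edgeR adjusted p = 4.64e-19). In Ankrd1 and Acta1 too the groups did not overlap. Reads of Nppa and Acta1 were in part divided with similar sequences by the counting, which makes their absolute levels less certain.

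The promoters of genes that moved together, and of Myh6, which moved the other way, are shown so that a reader can compare them. Each is the run of 250 bases before the gene start in RefSeq's table for GRCm38.p6, read 5′ to 3′ on the strand of the gene. Capitals mark matches, on either strand, to TATAAA (the TATA box), CATTCC (the core bound by TEAD factors), AGATAA (a core bound by GATA factors) and the CArG box (bound by serum response factor). The Nppa window lies at chr4:148000472-148000721 on the plus strand, Nppb at chr4:147985650-147985899 on the plus strand, Acta1 at chr8:123894776-123895025 on the minus strand and Ankrd1 at chr19:36119845-36120094 on the minus strand. Myh7, for which the first of 2 listed windows is shown, lies at chr14:54994627-54994876 and Myh6 at chr14:54966608-54966857, both on the minus strand.
Nppa: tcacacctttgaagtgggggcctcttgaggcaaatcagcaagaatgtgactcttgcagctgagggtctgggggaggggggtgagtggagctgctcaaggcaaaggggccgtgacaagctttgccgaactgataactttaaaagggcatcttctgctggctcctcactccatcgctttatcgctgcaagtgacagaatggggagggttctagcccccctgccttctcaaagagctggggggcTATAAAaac
Nppb: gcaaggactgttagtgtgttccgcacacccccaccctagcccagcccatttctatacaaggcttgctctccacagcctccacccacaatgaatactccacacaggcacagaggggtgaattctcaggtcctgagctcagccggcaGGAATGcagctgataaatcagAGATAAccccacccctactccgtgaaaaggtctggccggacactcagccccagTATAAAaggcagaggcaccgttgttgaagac
Acta1: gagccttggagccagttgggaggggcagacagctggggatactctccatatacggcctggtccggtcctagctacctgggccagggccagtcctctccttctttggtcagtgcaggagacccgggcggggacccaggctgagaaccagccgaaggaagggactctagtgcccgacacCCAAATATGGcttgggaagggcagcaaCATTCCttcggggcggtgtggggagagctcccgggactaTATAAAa
Ankrd1: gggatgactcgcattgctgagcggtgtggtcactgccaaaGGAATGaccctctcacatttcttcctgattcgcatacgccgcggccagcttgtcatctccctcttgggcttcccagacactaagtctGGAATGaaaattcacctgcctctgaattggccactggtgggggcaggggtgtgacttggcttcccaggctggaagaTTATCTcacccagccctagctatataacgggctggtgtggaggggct
Myh7: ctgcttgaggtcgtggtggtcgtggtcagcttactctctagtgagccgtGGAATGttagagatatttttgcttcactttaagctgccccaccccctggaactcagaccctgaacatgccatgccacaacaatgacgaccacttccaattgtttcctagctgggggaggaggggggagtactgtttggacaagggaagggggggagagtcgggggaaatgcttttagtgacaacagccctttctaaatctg
Myh6: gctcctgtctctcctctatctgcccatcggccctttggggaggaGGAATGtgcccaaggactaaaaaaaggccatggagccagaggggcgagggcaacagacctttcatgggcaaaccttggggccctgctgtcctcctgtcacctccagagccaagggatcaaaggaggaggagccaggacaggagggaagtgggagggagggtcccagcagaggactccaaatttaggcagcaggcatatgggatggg

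TATAAA stood -9 bases from the annotated start in Nppa, -31 in Nppb and -7 in Acta1, and 12.4% of the 32851 promoter windows of that table held it. CATTCC was found in the windows of Nppb, Acta1, Ankrd1 (2 sites), Myh7 and Myh6, thus in genes that rose and in one that fell, and in 12.6% of all windows. AGATAA was found in Nppb and Ankrd1 and in 9.99% of all windows. Other forms of the core bound by GATA factors were not searched for and are not marked. The CArG box of Acta1 stood at -73, and 1.47% of all windows held one. These are matches of letters and were not tested for binding.

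The other members of the natriuretic peptide system did not move as a block. Of 10 members tested, 6 rose and 2 fell. Corin, the protease that cuts pro-ANP on the cell surface, fell from 108 to 66.6 CPM (-0.69 ± 0.09, edgeR adjusted p = 6.86e-08). Pcsk6, a convertase that activates corin, rose from 8.93 to 35.8 CPM (1.99 ± 0.12). Npr1, the guanylyl cyclase receptor of both peptides, rose by 1.32 ± 0.11, and the clearance receptor Npr3 rose by 0.63 ± 0.11. Mme, neprilysin, which degrades the peptides, fell by 1.28 on the log2 scale.

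**Figure D2:**
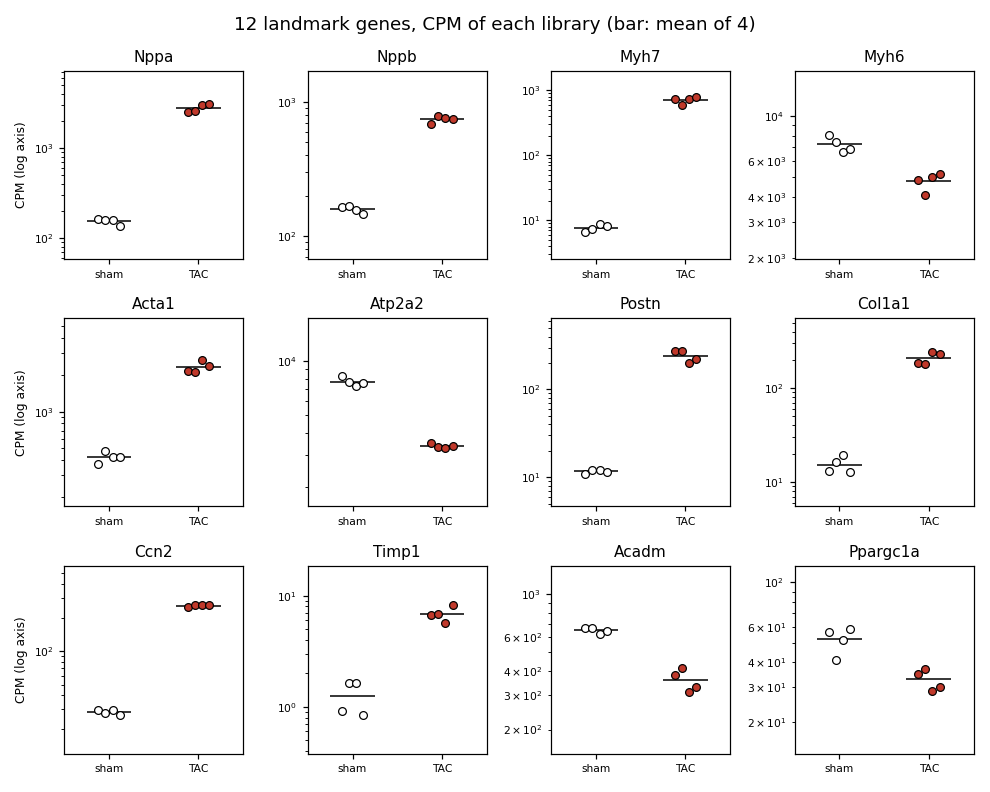
Points are the CPM of each library (log axis) for 12 genes chosen for their known role in pressure overload, with open circles for the 4 sham and filled circles for the 4 TAC libraries and a bar at each group's mean. The groups do not overlap in any of the 12 panels, with TAC above sham for Nppa, Nppb, Myh7, Acta1, Postn, Col1a1, Ccn2 and Timp1 and below it for Myh6, Atp2a2, Acadm and Ppargc1a.

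Within the contractile filaments some isoforms moved far more than their partners. Myh7, the slow myosin heavy chain, had 6.48, 7.41, 8.75 and 8.25 CPM in sham and 724, 596, 739 and 784 CPM after TAC, the largest rise among genes with a mean of at least 5 CPM (6.52 ± 0.10, edgeR adjusted p = 6.00e-29). Myh6, the fast heavy chain of the adult mouse ventricle, had 8075, 7426, 6632 and 6909 CPM in sham and 4837, 4086, 4974 and 5184 CPM in TAC and fell by 0.61 on the log2 scale (adjusted p = 1.47e-07). Per base of transcript, Myh7 made up 0.0773, 0.0961, 0.127 and 0.115% of the Myh6 plus Myh7 signal in the sham libraries and 12.6, 12.3, 12.5 and 12.7% in the TAC libraries. Both genes had fractional counts, so some of their reads were divided between similar sequences. Of 13 myosin chains and partners 5 rose and 5 fell. The kinases of the regulatory light chain both fell, Mylk3 by 0.71 and Mylk4 by 1.47 on the log2 scale, and the fast skeletal myosin-binding protein Mybpc2 rose by 1.52 ± 0.10.

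Acta1 went from 5.99% ± 0.202 (SD, n = 4) to 27.6% ± 1.53 of the Acta1 plus Actc1 signal per length, with no library of one group within the range of the other. The cardiac actin Actc1 itself differed by -0.14 ± 0.08 (edgeR adjusted p = 0.137). Among 16 actins, troponins and tropomyosins tested 7 rose and 7 fell. The troponin I gene Tnni3 fell from 3246 to 1893 CPM (-0.78 ± 0.09), while troponin C, Tnnc1, was not called, at 1623 and 1616 CPM. Tpm3, a tropomyosin of slow muscle, rose by 1.05 ± 0.08. Acta2, smooth muscle actin, a marker of both smooth muscle and activated fibroblasts, fell from 89.6, 102, 94.7 and 89.6 CPM to 48.1, 48.03, 57.5 and 55.6 CPM (-0.85 ± 0.08, edgeR adjusted p = 1.66e-10).

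The same measure, the share of one isoform in a pair per length, was taken for 12 pairs of related genes. The pairs and the order within each were chosen with earlier results of these data known. Myh7, Acta1, Pfkp and Ucp2 were themselves called higher, so the number of pairs that shifted is no independent result. In 11 of the 12 the share of the gene named first was higher in all 4 TAC than in all 4 sham libraries, with an exact two-sided permutation p = 0.0286 (the smallest that 4 against 4 allows) and 0.0312 adjusted over the 12. Besides both pairs above they were Tpm2 with Tpm1 (0.120% to 0.242%), Hk1 with Hk2 (43.5% to 60.6%), Pfkp with Pfkm (7.39% to 16.4%) and Ldha with Ldhb (29.3% to 41.3%). They also were Slc2a1 with Slc2a4 (2.60% to 5.95%), Cpt1a with Cpt1b (3.51% to 5.85%), Ckb with Ckm (2.23% to 3.71%), Kcnd3 with Kcnd2 (45.2% to 64.7%) and Ucp2 with Ucp3 (30.4% to 80.7%). The pair Tnni1 with Tnni3 overlapped between groups (exact permutation p = 0.0571), with Tnni1 at 0.0117% of it in TAC. A share within a library does not depend on the scaling between libraries. In the glucose, carnitine and creatine kinase pairs the first gene is also expressed by other heart cells, whose markers rose in the same libraries. The part of other cells was not tested for these or any other of the 12 pairs, Ucp2 with Ucp3 included.

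**Figure D3:**
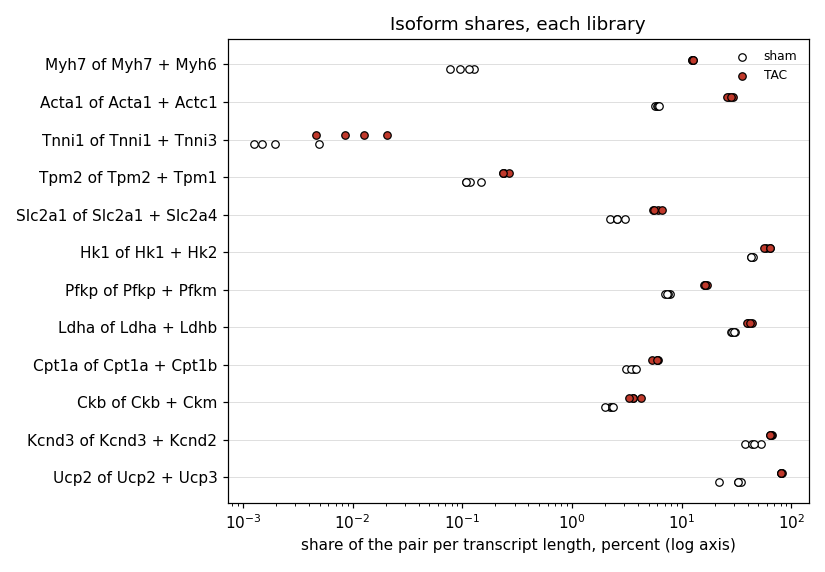
For each of the 12 isoform pairs, points give the percent of the pair's signal per transcript length that belonged to the gene named first (log axis), open circles for the 4 sham and filled circles for the 4 TAC libraries. As a ratio the shift is largest for Myh7, from 0.104% to 12.6%, and the groups overlap only for Tnni1.

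Z-disc, titin-bound and stretch-sensing genes mostly rose, 21 of 33 tested, with 8 lower. Xirp2, an actin-binding protein of the intercalated disc, had 256, 214, 215 and 232 CPM in sham and 804, 775, 633 and 655 CPM in TAC, a rise of 1.65 ± 0.08. Synpo2l rose by 2.02 ± 0.07, the M-band gene Myom2 by 1.26 ± 0.07 and Ankrd23, a relative of Ankrd1 at titin, by 1.30 ± 0.08. Other members of the same structure went down, among them Tcap, the titin cap, from 862 to 445 CPM (-0.95 ± 0.07), Fhl2 (-0.78 ± 0.07) and titin itself, Ttn (-0.38 ± 0.08). The muscle LIM protein gene Csrp3 was at 737 and 788 CPM (0.10 ± 0.08, edgeR adjusted p = 0.309). Desmin, Des, the intermediate filament of muscle, rose from 1166 to 1769.8 CPM (0.60 ± 0.08).

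At the intercalated disc, T-tubule and costamere 15 of 31 genes fell and 9 rose, and with library size alone the counts were 14 higher and 5 lower. Gja1, connexin 43, the gap junction channel that couples myocytes, had 267, 224, 234 and 239.6 CPM in sham and 142, 150.0, 107 and 113 CPM in TAC and fell by 0.91 on the log2 scale (edgeR adjusted p = 7.07e-10). N-cadherin, Cdh2, fell by 0.64, while the desmosomal gene Dsp was at 369 CPM in sham and 382 CPM in TAC. Tln1, talin at cell adhesions, rose by 0.91 ± 0.08.

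The main genes that move calcium into the sarcoplasmic reticulum and back fell. Atp2a2 encodes the SERCA2 pump. It had 8258, 7653, 7233 and 7522 CPM in sham and 3528, 3351, 3271 and 3361 CPM in TAC, so the highest TAC library was below the lowest sham library (-1.18 ± 0.07, edgeR adjusted p = 8.55e-15). Its inhibitor phospholamban, Pln, fell in parallel from 3781 to 1993 CPM (-0.92 ± 0.08). The release channel Ryr2 fell by 0.68, triadin, Trdn, by 0.71 and the luminal protein Hrc by 1.10 on the log2 scale. Strit1, which encodes the micropeptide DWORF that activates SERCA, fell by 1.30. Calsequestrin, Casq2, and S100a1 were not called, at -0.05 ± 0.07 and 0.06 ± 0.07. Genes of inositol trisphosphate and store-operated calcium release rose, Itpr2 by 1.14 ± 0.12, Itpr3 by 1.23 ± 0.18 and Stim1 by 1.13 ± 0.13. Over the 20 genes tested 8 fell and 5 rose, and with library size alone the counts were 12 higher and 5 lower.

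Of 21 potassium channel genes 16 fell and 4 rose, with a median of -0.52. With library size alone 5 higher and 10 lower were called and the median was -0.17. Kcnd2, a pore of the transient outward current, had 19.5, 14.2, 17.4 and 19.2 CPM in sham and 5.06, 6.71, 5.03 and 5.37 CPM in TAC (-1.66 ± 0.11, edgeR adjusted p = 1.32e-13). Its auxiliary subunit Kcnip2 fell by 0.94, the inward rectifier Kcnj2 by 1.33 and Kcnh2, of the rapid delayed rectifier, by 1.06 on the log2 scale. The acetylcholine-gated channel genes Kcnj3 and Kcnj5 fell by 1.52 and 1.14, and the silent subunit Kcnv2 fell by 2.25. The 4 that rose were Kcna4, Kcna5, Kcnj8 and Kcne4, at 1.26, 0.89, 0.92 and 1.53, of which Kcna4 was not called without sham library 3 (0.99, edgeR adjusted p = 0.0511). Kcnj8 is also a pericyte gene. Among 20 sodium, calcium and pacemaker channels and pumps 14 fell and 4 rose, against 4 higher and 8 lower with library size alone. Scn4b, a sodium channel beta subunit, fell from 29.8, 27.6, 25.2 and 24.1 CPM to 7.57, 5.93, 8.91 and 7.86 CPM (-1.81 ± 0.11). The beta subunit of the calcium channel, Cacnb2, fell by 0.96 and the pacemaker channel Hcn4 by 0.91. The main pore of the L-type calcium current, Cacna1c, had a smaller difference of -0.29 ± 0.07, and 0.07 with no TMM factor.

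The adrenergic receptors Adrb1, Adra1a and Adra1b fell, while Ace and several endothelin genes rose. Adrb1, the main beta receptor of the heart, fell by 1.24, Adra1a by 0.91 and Adra1b by 1.37 on the log2 scale. Rgs2, which damps signals of Gq-coupled receptors, had 28.6, 26.03, 24.1 and 24.1 CPM in sham and 7.83, 8.99, 5.45 and 5.85 CPM in TAC and fell by 1.86 (edgeR adjusted p = 5.62e-14). Ace, angiotensin-converting enzyme, had 8.68, 11.8, 13.5 and 9.58 CPM in sham and 75.3, 73.7, 106 and 112 CPM after TAC, a rise of 3.06 ± 0.14 (adjusted p = 1.40e-12). The angiotensin receptor Agtr1a fell by 0.66. The endothelins Edn1 and Edn3 rose by 1.37 ± 0.26 and 2.28 ± 0.21, the receptor Ednrb by 1.42 ± 0.11 and the converting enzyme Ece1 by 1.15 ± 0.10. Ace, Ednrb and Ece1 are also genes of endothelium, whose 16 tested markers all rose, and the part of those cells was not tested. Over this list of 29 genes 12 rose and 10 fell.

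Rcan1, a target and brake of the phosphatase calcineurin, had 56.8, 56.4, 57.05 and 57.2 CPM in sham and 146, 146, 145 and 135 CPM in TAC (1.33 ± 0.06, edgeR adjusted p = 2.65e-17). The cardiac transcription factor Tbx5 fell by 0.66. Hopx, a homeodomain cofactor of heart development, fell by 0.82. Runx1 and Meox1, factors of injured myocytes and of activated fibroblasts, rose by 1.96 ± 0.26 and 2.04 ± 0.10. Among 25 immediate early genes, which respond to stimuli within minutes and also to cell isolation, 17 rose and 2 fell. The best known did not share a direction: Egr1 was at 0.05 ± 0.07 and was not called, Fos and Atf3 fell by 0.49 and 0.79, and Myc and Klf4 rose by 1.25 ± 0.19 and 1.01 ± 0.09.

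Microtubule genes mostly rose, 14 of 21 tested. Tuba1a, an alpha tubulin of young tissue, had 24.1, 33.8, 34.2 and 28.4 CPM in sham and 75.4, 74.4, 85.8 and 84.6 CPM in TAC (1.41 ± 0.09), and Tubb2a, Tubb2b and Tubb5 rose by 1.07 ± 0.10, 2.08 ± 0.25 and 0.74 ± 0.08. The 4 that fell were Tuba4a (-1.08 ± 0.07), the most abundant alpha tubulin counted in sham by CPM, Tuba8 (-0.47 ± 0.08), Tubb4b (-0.48 ± 0.08) and Tubg1 (-0.52 ± 0.11). The microtubule-binding genes Map4 and Map1b rose by 0.68 ± 0.07 and 1.29 ± 0.12. Tubulin transcripts are similar in sequence, so reads may have been divided among them.

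Nuclear regulators of energy metabolism more often fell than rose. Of 26 tested 15 were lower and 4 higher, and with library size alone the counts were 8 higher and 7 lower. Ppargc1a, the coactivator PGC-1 alpha that drives mitochondrial genes, had 56.6, 40.9, 51.6 and 58.5 CPM in sham and 35.1, 37.1, 28.8 and 30.1 CPM in TAC (-0.66 ± 0.11, edgeR adjusted p = 2.82e-05, and adjusted p = 0.0581 with library size alone). Its nuclear receptor partners Esrra and Esrrg fell by 0.68 and 0.76, the retinoid receptor Rxrg by 0.80 and the thyroid hormone receptor Thrb fell by 1.05 on the log2 scale. Klf15, a regulator of lipid and amino acid use, fell by 0.74 and the glucose-sensing factor Mlxipl by 0.77. Ppara, the fatty acid receptor, was at 5.26 and 3.75 CPM and missed the threshold (-0.47 ± 0.21, adjusted p = 0.0609), which it passed without sham library 2 (-0.58), sham library 3 (-0.60) or TAC library 3 (-0.66). It also passed with DESeq2 size factors (adjusted p = 0.0478), the DESeq2 Wald test (adjusted p = 0.0275), no low-count filter (edgeR adjusted p = 0.00427) and no robust spread (edgeR adjusted p = 0.0476).

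Genes of fatty acid use mostly fell, from uptake to the last thiolase. Of 37 genes for entry, activation and storage 23 fell and 8 rose, and of 18 beta-oxidation genes 17 fell and none rose, with a median of -0.86. With library size alone the counts were 13 higher and 12 lower for the first list and 0 higher and 17 lower for the second. The only one not called was Acad10 (-0.26 ± 0.18). Lpl, the lipase that frees fatty acids in the capillary, fell from 4614 to 2645 CPM (-0.80 ± 0.08) and the activating ligase Acsl1 by 0.96. Hadhb, a subunit of the trifunctional enzyme, had 1304, 1266, 1131 and 1207 CPM in sham and 668, 729.8, 625 and 596 CPM in TAC (-0.91 ± 0.07, edgeR adjusted p = 6.23e-12). The electron carriers Etfa, Etfb and Etfdh fell by 1.06, 1.03 and 1.00. Acot1, a thioesterase that frees fatty acids from coenzyme A, had 9.11, 9.34, 7.91 and 9.31 CPM in sham and 1.79, 1.40, 1.68 and 2.22 CPM after TAC, one of the 15 largest falls of genes with at least 5 CPM (-2.33 ± 0.14). Its near copy Acot2 fell by 1.12, and reads can be shared between them. Those that went the other way were led by Scd2, a desaturase, and Ucp2, at 1.01 ± 0.10 and 0.97 ± 0.10.

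Ketone and lactate genes fell in 7 of 10 cases, among them Oxct1, the first step of ketone use (-0.75 ± 0.08), and Ldhb (-0.80 ± 0.07), while Ldha was at -0.04 ± 0.07. The one that rose was the lactate exporter Slc16a3 (1.17 ± 0.25). In glucose uptake, glycolysis and pyruvate entry 15 of 29 genes fell and 7 rose, and with library size alone the counts were 14 higher and 10 lower. The insulin-responsive transporter Slc2a4 fell by 0.79, Hk2 by 0.75 and Pfkfb1, a maker of the phosphofructokinase activator, fell by 2.09. Hk1, Pfkp and Slc2a1 rose by 0.26 ± 0.08, 0.73 ± 0.07 and 0.47 ± 0.12. Pdk4, the kinase that shuts pyruvate out of mitochondria, had 539.6, 445, 472 and 506 CPM in sham and 257, 256, 226 and 219 CPM in TAC (-1.03 ± 0.08, edgeR adjusted p = 6.28e-12). The opposing phosphatase gene Pdp2 also fell, from 15.95 to 4.35 CPM (-1.87 ± 0.10). Among 18 glycogen genes 13 fell, the deepest being Phkg1, the catalytic subunit of muscle phosphorylase kinase (14.2 to 3.08 CPM, -2.21 ± 0.10), while Ppp1r3c, which targets a phosphatase to glycogen, rose by 0.62 ± 0.07. With library size alone 5 higher and 3 lower glycogen genes were called.

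In NAD metabolism one gene moved much more than the rest of its list. Nmrk2, nicotinamide riboside kinase of muscle, had 2.28, 2.59, 1.81 and 2.80 CPM in sham and 24.9, 28.9, 26.5 and 24.01 CPM in TAC, a rise of 3.44 ± 0.12 (edgeR adjusted p = 1.83e-20). Nampt, the main salvage enzyme, fell by 0.53, the mitochondrial kinase Nadk2 by 1.21 and the transhydrogenase Nnt by 0.77. The NAD-consuming ectoenzyme Cd38 rose by 1.07 ± 0.10. In the serine, one-carbon and pentose phosphate list 9 of 17 rose and 3 fell, with Phgdh, which opens serine synthesis, at 1.75 ± 0.40 and G6pdx, which opens the pentose phosphate pathway, at 0.87 ± 0.18. Gpt2, the mitochondrial alanine transaminase, fell by 1.02.

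Among proline genes, the subject of the study, Prodh, which begins proline breakdown, had 10.9, 11.1, 10.4 and 11.5 CPM in sham and 8.38, 6.19, 8.23 and 6.34 CPM in TAC (-0.58 ± 0.11, edgeR adjusted p = 2.58e-05), a call that scaling by library size alone did not make (-0.23, adjusted p = 0.0798). The next enzyme, Aldh4a1, fell by 0.81. The collagen prolyl hydroxylases P3h1, P3h2 and P3h3 rose by 0.78 ± 0.11, 1.63 ± 0.25 and 2.38 ± 0.13, and P4hb, a subunit of the 4-hydroxylase, by 0.59 ± 0.07. Over the 16 genes tested 8 rose and 4 fell, and with library size alone the counts were 11 higher and 2 lower.

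Whole families of mitochondrial genes shifted by a similar, moderate amount. All but 7 of the 79 mitochondrial ribosome genes tested fell (72 lower, none higher, median -0.46), for example Mrpl45 (-0.76 ± 0.07) and Mrpl47 (-0.93 ± 0.09). In complex I, subunits and assembly factors together, 47 of 48 fell (median -0.56). The exception, noticed for its direction, was Ndufa4l2, a hypoxia-linked relative also expressed in mural cells, which rose from 4.47 to 11.03 CPM (1.30 ± 0.12). Of 26 nuclear cytochrome c oxidase genes 20 fell, led by the muscle isoform Cox7a1 (431 to 210.3 CPM), and 2 rose, Cox19 (0.28 ± 0.09, and 0.22 with edgeR adjusted p = 0.0502 without sham library 4) and the isoform Cox4i2 (1.06 ± 0.18). Of 17 ATP synthase genes 16 fell. Mitochondrial dynamics and quality control followed, with 21 of 24 lower, among them the fusion gene Mfn1 (-0.79 ± 0.07), the mitophagy kinase Pink1 (-0.67 ± 0.07) and the matrix chaperone Hspd1 (-1.07 ± 0.09). Scaled by library size alone, the numbers lower in the ribosome, complex I, cytochrome c oxidase and ATP synthase families were 25, 26, 9 and 6, with 4, 1, 5 and 0 higher. For dynamics and quality control the counts were then 1 higher and 9 lower.

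**Figure D4:**
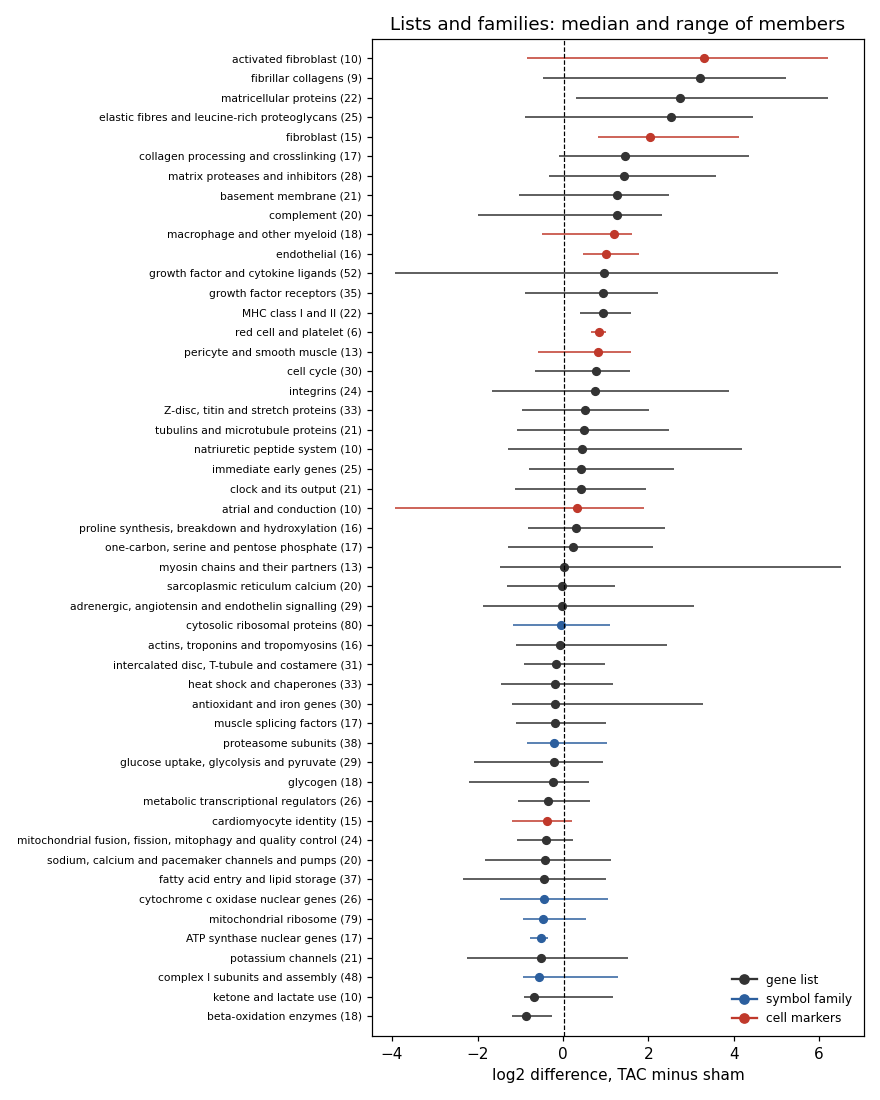
For each gene list or family, thin lines run from the lowest to the highest log2 difference (TAC minus sham) of its tested members and the dot marks their median, with the vertical dashed line at the median of all genes tested. Matrix and other-cell marker lists lie to the right of 0 and mitochondrial and fatty acid lists to the left, with fibrillar collagens at 3.21 and beta-oxidation enzymes at -0.86.

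Genes of the extracellular matrix mostly rose in every class examined. Of 9 fibrillar collagen genes 8 rose and the other, Col11a2, was at -0.47 and was not called. Col1a2 had 17.6, 20.5, 25.5 and 19.2 CPM in sham and 277, 244, 319 and 344 CPM in TAC, and Col3a1, the other main chain of scar collagen, had 40.2, 40.1, 50.4 and 35.6 CPM and 371, 347, 399 and 420.2 CPM. They rose by 3.83 ± 0.12 and 3.21 ± 0.10 (edgeR adjusted p = 1.62e-18 and 1.55e-20). Basement membrane genes rose in 19 of 21 cases but by less, with a median of 1.27 against 3.21 for the fibrillar collagens. Col4a1, its most abundant chain by CPM, rose from 188 to 454 CPM, and the only member that fell was Lamb3 (-1.03 ± 0.14). Among the other collagens Col8a1, a short-chain collagen of vessels and scars, had 4.91, 3.25, 5.98 and 4.44 CPM and 82.6, 82.3, 70.1 and 77.2 CPM (4.09 ± 0.12), and Col12a1, which decorates fibrils, went from 0.349 to 16.6 CPM.

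Crosslinking and processing enzymes rose with their substrate, 15 of 17. Lox, lysyl oxidase, went from 0.996, 1.12, 1.75 and 1.48 CPM to 28.2, 28.4, 27.2 and 26.3 CPM (4.35 ± 0.16). Loxl1, Loxl2 and Loxl3 rose by 2.76 ± 0.10, 2.83 ± 0.12 and 3.70 ± 0.16. All 22 matricellular genes tested rose, with a median of 2.75. Comp, cartilage oligomeric matrix protein, had 0.356, 0.558, 0.423 and 0.476 CPM in sham and 33.9, 27.7, 36.96 and 40.3 CPM in TAC, and Cilp, a cartilage protein that binds growth factors, had 3.27, 2.84, 3.20 and 3.02 CPM and 142, 131, 166 and 165 CPM. Ccn2, connective tissue growth factor, made by both myocytes and fibroblasts, had 29.5, 27.96, 29.8 and 26.9 CPM and 249, 259.9, 258 and 256 CPM (3.17 ± 0.07, edgeR adjusted p = 3.48e-25). Its relative Ccn1 rose by only 0.30 ± 0.07.

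Of 25 elastic fibre and proteoglycan genes 23 rose, with elastin, Eln, at 3.20 ± 0.10, fibromodulin, Fmod, at 4.45 ± 0.17 and biglycan, Bgn, going from 41.7 to 405 CPM. The one that fell was Emilin2, an elastic fibre glycoprotein (-0.89 ± 0.10). Ogn, osteoglycin, was not called, at 55.2 and 47.6 CPM (-0.21 ± 0.15, edgeR adjusted p = 0.245, and -0.37 with adjusted p = 0.0129 without TAC library 2). Matrix proteases and their inhibitors rose together, 23 of 28. The gelatinase Mmp2 had 5.91, 7.86, 10.4 and 6.82 CPM and 84.5, 93.7, 96.2 and 101 CPM (3.59 ± 0.12), and Timp1, an inhibitor of it and of other metalloproteinases, 0.925, 1.62, 1.63 and 0.846 CPM and 6.64, 6.91, 5.71 and 8.29 CPM (2.43 ± 0.19).

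Most lists of markers of other cells moved in the same direction as the matrix genes and in the same libraries. The fibroblast lists are not independent of the matrix genes. The fibroblast markers include Col1a1 and the activated fibroblast markers include Postn, Comp and Cilp, so their sums in part repeat the matrix result. All 15 tested fibroblast markers rose. Their summed level was 260.1 to 417 CPM in sham and 1390.0 to 1519.7 CPM in TAC, and Pdgfra, which defines these cells, went from 6.19, 5.53, 5.92 and 4.66 CPM to 22.7, 19.3, 24.01 and 24.1 CPM (2.02 ± 0.12). For endothelium all 16 markers rose, with sums of 683 to 836 and 1300.0 to 1512 CPM and Pecam1 at 74.9 and 169 CPM. For myeloid cells 16 of 18 rose, with sums of 146 to 226 and 408 to 440.3 CPM and the macrophage receptor Csf1r at 12.6 and 36.5 CPM. The 6 red cell and platelet genes tested rose as well, with sums of 112 to 189 and 229.8 to 308 CPM, although the globin genes share reads. Mural cell markers rose in 10 of 13 cases, and Des and Abcc9 of that list are also myocyte genes. Of 12 lymphoid markers only Cd4 passed the filter on low counts, and the adipocyte markers Adipoq, Plin1 and Cidec did not pass it. The only adipocyte marker tested, Cfd, fell by 1.98. Schwann and neuronal sums ran from 2.94 to 3.60 CPM in sham and from 1.94 to 3.14 CPM in TAC. Of 2 such markers tested 1 was lower and none higher. The sums of the cardiomyocyte markers moved down, with 10 of 15 lower and 1 higher. Scaled by library size alone, 5 cardiomyocyte markers were lower and 5 higher. The part of these cells in the rise of matrix, immune and vessel genes was not tested.

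**Figure D5:**
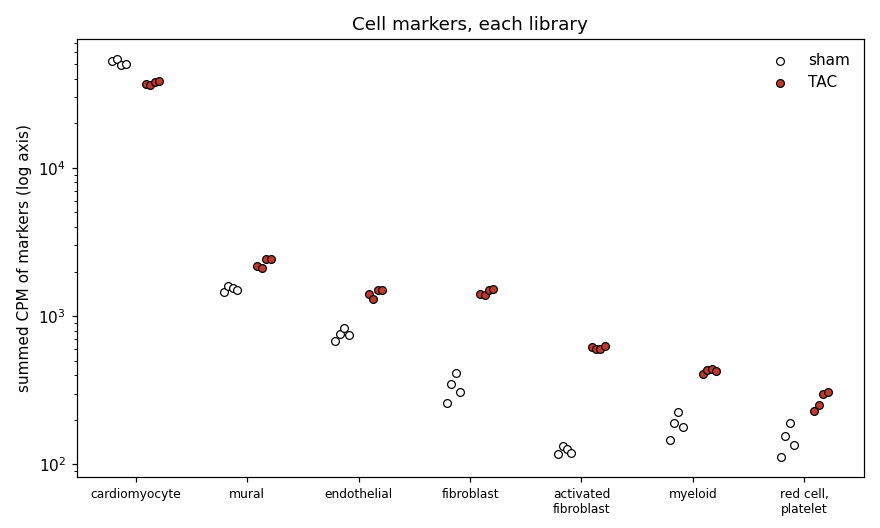
Points give the summed CPM (log axis) of each list of cell markers in every library, open circles for the 4 sham and filled circles for the 4 TAC libraries. The cardiomyocyte sums lie lower after TAC, and the fibroblast, activated fibroblast, endothelial, mural, myeloid, and red cell and platelet sums lie higher, with no overlap of the groups.

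The markers did not rise by one common factor. The median was 2.03 for fibroblast, 3.31 for activated fibroblast, 1.02 for endothelial and 1.19 for myeloid markers, on the log2 scale. Within the activated fibroblast list Comp, Cthrc1 and Cilp rose by 6.21, 5.66 and 5.62, Acta2 fell, and the secreted Wnt inhibitor Wif1 was not called (-0.43 ± 0.26). Among myeloid markers the neutrophil gene S100a9 was not called (-0.49 ± 0.26).

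Secreted ligands rose in 30 of 52 cases and fell in 13. In the transforming growth factor family Tgfb2 and Tgfb3 rose by 1.98 ± 0.11 and 1.66 ± 0.10 and the stress ligand Gdf15 by 2.41 ± 0.26. Bmp10, a ligand of the atrial wall, had 5.55, 5.07, 5.25 and 4.39 CPM in sham and 0.340, 0.208, 0.262 and 0.488 CPM in TAC, and fell by 3.94 (edgeR adjusted p = 3.81e-13). Atrial markers as a whole did not fall, with 5 of 10 higher, 2 lower and the atrial light chain Myl4 at 23.9 and 32.6 CPM (0.45 ± 0.09). Fstl1, a secreted glycoprotein of injured heart, rose from 20.6, 21.1, 27.5 and 22.3 CPM to 181, 167, 185 and 200.3 CPM (3.00 ± 0.10), and the Wnt-binding proteins Sfrp1 and Sfrp2 rose by 3.06 ± 0.15 and 5.04 ± 0.21. Among angiogenic ligands of the heart Angpt1 went from 30.3, 17.8, 27.5 and 28.6 CPM to 7.95, 8.37, 6.08 and 5.47 CPM (-1.89 ± 0.16), and Apln, the ligand apelin, fell by 0.94. Of 35 growth factor receptors 24 rose, among them Tgfbr2 (1.46 ± 0.09), Fgfr1 (1.68 ± 0.12) and Tnfrsf12a, the receptor of TWEAK (1.33 ± 0.08). The oncostatin M receptor Osmr rose by 1.19 ± 0.10.

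Integrin genes rose in 20 of 24 cases, led by Itga11, a collagen receptor of fibroblasts (3.88 ± 0.31), and Itga5, a fibronectin receptor (1.24 ± 0.10). The 2 that fell were Itga7, the laminin receptor of muscle (-0.31 ± 0.08, and 0.04 when scaled by library size alone), and Itgb6 (-1.66 ± 0.11). Complement rose in 17 of 20, with C3 going from 48.7 to 122 CPM and the C1 inhibitor Serping1 from 11.6, 18.8, 22.6 and 14.5 CPM to 78.5, 83.1, 86.8 and 93.6 CPM (2.33 ± 0.14), while Cfd and Cd59a fell by 1.98 and 0.58. All 22 genes of antigen presentation rose, class I members such as H2-K1 by 0.74 ± 0.07 and class II members such as H2-Ab1 by 1.54 ± 0.15, and the immunoproteasome subunit Psmb8 by 1.03 ± 0.13. Class I genes are near copies of each other and can share reads. Myeloid markers, whose values are given above, rose with these lists, and their part was not tested. The standard proteasome went the other way, with 19 of 38 subunits lower, for example Psma1 (-0.58 ± 0.08), and the 4 that rose were Psmb8, Psmb9, Psmb10 and Psmd8. With library size alone 17 higher and 1 lower subunits were called, so the direction of that family depends on the scaling.

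Sod2, the mitochondrial superoxide dismutase, fell by 0.73 and the extracellular enzymes Sod3 and Gpx3 rose by 1.43 ± 0.12 and 1.11 ± 0.08. Nox4, an oxidase that makes hydrogen peroxide, rose from 0.356, 0.254, 0.423 and 0.582 CPM to 3.79, 3.79, 3.83 and 4.61 CPM (3.29 ± 0.25). Hmox1, heme oxygenase, rose by 1.22 ± 0.14. Of the 30 genes tested 9 rose and 15 fell, and with library size alone the counts were 15 higher and 4 lower. Chaperones divided too, with 15 of 33 lower and 5 higher, and with library size alone the counts were 15 higher and 8 lower. Hsph1 fell by 1.44, the reticulum chaperone Hspa5 by 0.76 and the myosin chaperone Unc45b by 0.90, while the inducible genes Hspa1a and Hspa1b, which are near identical, rose by 1.02 ± 0.07 and 1.18 ± 0.07. The atrophy ligases Fbxo32 and Trim63 fell by 0.80 and 0.37, and the kelch-like gene Klhl33 had one of the 15 largest falls, from 14.02, 16.7, 15.5 and 17.7 CPM to 2.98, 2.86, 2.41 and 2.01 CPM (-2.63 ± 0.12, edgeR adjusted p = 3.66e-17).

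Most cytosolic ribosomal protein genes were not called: 5 of 80 rose and 10 fell, both below the shares over all genes, but with library size alone the counts were 65 higher and 1 lower. Within them a muscle-specific paralog and its general form moved in opposite directions. Rpl3l, expressed mainly in adult heart and skeletal muscle, had 149.7, 173, 154 and 156 CPM in sham and 67.97, 66.96, 74.3 and 73.4 CPM in TAC, and Rpl3 had 70.7, 74.7, 78.1 and 79.4 CPM and 152, 159, 169 and 170.4 CPM. Rpl3l fell by 1.16 and Rpl3 rose by 1.10 ± 0.08 (edgeR adjusted p = 2.64e-13 and 3.28e-13). Eif4ebp1, a brake on cap-dependent translation, rose by 1.10 ± 0.10.

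Clock genes rose in 15 of 21 cases. The repressors Per2 and Cry1 rose, Per2 from 3.06, 1.42, 2.41 and 2.59 CPM to 9.95, 9.57, 8.96 and 7.32 CPM (1.95 ± 0.16) and Cry1 by 1.46 ± 0.11, while Nr1d1, Nr1d2 and Dbp fell by 1.13, 0.78 and 0.71. The labels do not state the time of day of collection. Glucocorticoid targets did not share a direction: Fkbp5 rose from 7.19, 8.68, 7.12 and 7.67 CPM to 26.4, 25.99, 28.3 and 24.7 CPM (1.77 ± 0.09) and Sgk1 by 1.04 ± 0.07, but Klf9 fell by 0.30, which turned to 0.05 with library size alone, and Zbtb16 was not called (0.14 ± 0.15). The mineralocorticoid receptor Nr3c2 fell by 1.08.

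Of 17 splicing factors of muscle 9 fell, Rbfox1 most (-1.10 ± 0.14), and 1 rose, Ptbp1, a repressor of muscle exons (1.02 ± 0.09), and with library size alone the counts were 4 higher and 1 lower. Among long noncoding RNAs of the heart Chaer1 fell from 9.89, 11.2, 8.99 and 8.20 CPM to 1.999, 1.72, 2.10 and 2.06 CPM (-2.28 ± 0.14). Mhrt, which overlaps Myh7 on the other strand, fell by 0.81. The labels do not state whether the counting used strand, so reads of Mhrt and Myh7 cannot be told apart. The imprinted RNAs Meg3, Rian and H19 rose by 1.91 ± 0.23, 1.36 ± 0.19 and 1.05 ± 0.12. Cell cycle genes rose in 22 of 30 cases from low levels, Mki67 from 2.47 to 4.40 CPM and Top2a from 2.24 to 5.16 CPM, and the inhibitors Cdkn1a and Cdkn1c rose by 0.92 ± 0.08 and 0.93 ± 0.12. Which cells in the libraries carried these transcripts was not tested.

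Other genes stood out by size alone. Among the 15 largest rises of genes with at least 5 CPM were Angptl7, a secreted angiopoietin-like protein (0.213, 0.254, 0.121 and 0.159 CPM in sham, 13.8, 15.4, 13.9 and 13.9 CPM in TAC, 6.20 ± 0.21), Ltbp2, a latent growth factor binding protein of matrix (5.58 ± 0.16), Svep1 (4.55 ± 0.15) and Pamr1 (4.18 ± 0.24). Among the 15 largest falls were Ky, a muscle gene of the Z-disc region (-2.11 ± 0.12), the carboxylesterase Ces1d (-2.02 ± 0.07), Trim7, a glycogenin-binding ligase (-1.74 ± 0.10), Whrn, a scaffold of hair cells (-1.74 ± 0.10), and the orphan receptor Gpr22 (-1.71 ± 0.19). Some genes had counts in one group only. Of genes with a symbol outside mitochondrial sequences, 2695 had 0 counts in all sham libraries and 1815 in all TAC libraries. Those named here were among the highest of them by mean CPM in the other group. Col9a2, a cartilage collagen, had a count of 0 in all 4 sham libraries and 2.55, 2.70, 3.25 and 3.09 CPM in the TAC libraries, at least 66.9-fold higher against a floor of 3 counts over the group. Ucp1, the uncoupling protein of brown fat, had 0.356, 0.660, 1.15 and 0.741 CPM in sham, from 51 counts in total. It had a count of 0 in all 4 TAC libraries, at least 19.4-fold lower. The adipocyte marker Cfd fell in the same libraries, while summed adipocyte markers ran from 0.854 to 2.28 CPM in sham and 0.260 to 0.434 CPM in TAC, and their part in the level of Ucp1 was not tested.

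For some abundant genes the data put a close bound on any change. Of 615 genes with a mean of at least 100 CPM and a standard symbol outside the mitochondrial genome, 81 had a 95% interval of the log2 difference wholly between -0.25 and 0.25. The most abundant were Tnnc1 (-0.17 to 0.16), the constitutive chaperone Hspa8 (-0.17 to 0.10), the lysosomal protease Ctsd (-0.16 to 0.13), Casq2 (-0.19 to 0.10), Ldha (-0.18 to 0.11) and the ribosomal stalk protein Rplp0 (-0.17 to 0.21). These intervals are relative to the bulk of the genes, and with library size alone the 6 genes moved to between 0.31 and 0.37.

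The study also measured TAC against sham in mice given the AAV9-PRODH virus, which carries proline dehydrogenase, with the same strain and times, in 4 libraries a group. The difference between the TAC effects was tested as an interaction in the same fit for the 12 landmark genes, and no library is shared between the effects. All 12 had an adjusted p below 0.05, where 26.8% of all genes did. That share is no like background, because the 12 were chosen with earlier results of these data known and all were called under the vector. The effect was larger under the vector for each of them. Myh7 rose by 6.52 under the vector and 1.11 under PRODH, a difference of 5.41 ± 0.14 (edgeR adjusted p = 6.99e-23). For Nppa the effects were 4.19 and 1.93, and for Nppb they were 2.24 and 1.54. Timp1 was at 2.43 under the vector and 0.03 under PRODH. Of the genes that fell, Atp2a2 was at -1.18 and -0.41, Ppargc1a at -0.66 and -0.06, and Acadm at -0.85 and -0.55, whose difference of -0.30 had an edgeR adjusted p = 0.0339. That of Acadm was not called without TAC library 3 (-0.24, edgeR adjusted p = 0.0891), without TAC library 4 (-0.26, adjusted p = 0.0825) or with library size alone (-0.32, adjusted p = 0.0527).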

How the data were processed

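RNA was sequenced from isolated cardiomyocytes, with libraries made by a SMARTER mRNA-Seq kit after TRIzol extraction and DNase I, per the labels' protocols. For 57010 gene models the authors deposited expected counts (estimated read numbers, fractional in 9538 genes) with gene lengths and unused group means. How reads were aligned and counted, and on which build and annotation: not given in the sources used here. Printed coordinates are those of RefSeq's promoter table. Expected counts were rounded and fitted with edgeR 4.0.16 in R 4.3.3 (limma 3.58.1, data.table version 1.17.8) in one quasi-likelihood model of all 16 libraries with 4 groups, no block and robust spread. Genes were kept by filterByExpr (minimum count 10, total 15), libraries were scaled by TMM, and the Benjamini-Hochberg method adjusted p over 14066 genes with a threshold of 0.05. SE belongs to log2 differences and SD to the 4 libraries of a group. Fitted differences used a prior count of 0.125. A gene is called where its adjusted p passes, and every rise or fall named passes in edgeR.

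Genes of the mitochondrial genome and copies were found by shared 31-base words in GENCODE M21 transcripts, and transcript types come from it. Isoform shares divide CPM by the deposited length and were compared with an exact permutation test. All 86 lists (43 curated, 31 symbol families, 12 marker lists), the landmark genes, the 12 isoform pairs and the comparison were chosen with earlier results of these data known. Named genes were the 12 landmarks, list members marked for their role, up to 2 further members a list with the smallest p and at least 1 CPM, and the 15 largest rises and 15 largest falls of at least 5 CPM without overlap. Also named were genes absent from one group, genes of at least 100 CPM with an interval within 0.25 of 0, and genes of at least 1000 CPM that changed by 1 or more. Outside that rule, and after their values were seen, came Acad10, Cd59a, Col11a2, Cox19, Cox4i2, Emilin2, Etfa, Etfb, Itpr3, Kcna4, Kcne4, Lamb3, Ndufa4l2, Psmb9, Psmd8, S100a9, Slc16a3 and Tubg1. The script was tested on simulated data. Alternatives were other scalings, filters, DESeq2 1.42.0, the vector libraries alone, a replicate block and each library left out. At 6259310 to 9379763 counts outside mitochondrial sequences per library, the median SE was 0.13.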

Additional observations from a re-analysis of the deposited data

Results flagged for a closer look

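Within each group of 4 libraries the highest and lowest values were compared with the rest by the size of their gap, a rule by which chance alone picks about 1 in 20 groups. Of 538 groups of values examined, 31 (5.76%) held a library that stood apart, 9 of them in sham library 1 and 7 in TAC library 2. Gene levels below are in CPM, with the range of the other 3 libraries in parentheses. Sham library 1 stood apart for Cthrc1 at 0 (0.101 to 0.121), Hsph1 at 72.7 (64.01 to 65.1), Itgb6 at 15.4 (12.5 to 12.6) and Meg3 at 0.712 (1.12 to 1.16). It also stood apart for Phkg1 at 16.2 (13.4 to 13.7), Sfrp1 at 1.71 (2.33 to 2.43), Synpo2l at 66.1 (57.7 to 58.1) and Trim63 at 135 (109 to 112). It had a share of Ucp2 with Ucp3 of 21.7% (32.5% to 34.7% in the others). Sham library 2 stood apart for Pink1 at 304 (273 to 278) and Tcap at 930.4 (835 to 841). It had a mitochondrial genome share of 37.9% (40.8% to 40.9%). Sham library 3 stood apart for Acot1 at 7.91 (9.11 to 9.34), Npr1 at 6.76 (6.04 to 6.14), Osmr at 7.67 (6.65 to 6.77) and Pamr1 at 1.45 (0.285 to 0.406). TAC library 1 had a total count of 20033558 (17015211 to 17487680). TAC library 2 stood apart for Angptl7 at 15.4 (13.8 to 13.9), Cox19 at 33.3 (34.9 to 35.2), Gpr22 at 10.97 (6.98 to 7.60) and Hopx at 59.5 (48.8 to 49.9). It also stood apart for Pfkp at 54.7 (60.8 to 61.1), Sfrp2 at 12.4 (10.6 to 10.8) and Zbtb16 at 12.8 (19.1 to 19.4). TAC library 3 stood apart for Ndufa4l2 at 12.8 (10.3 to 10.5). It had a share of Tpm2 with Tpm1 of 0.264% (0.233% to 0.238% in the others). TAC library 4 stood apart for Adra1a at 2.82 (2.29 to 2.34), Cox4i2 at 5.91 (3.53 to 3.83), Nox4 at 4.61 (3.79 to 3.83) and Psmb8 at 11.003 (11.6 to 11.7). It also stood apart for Rcan1 at 135 (145 to 146).

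The TAC effect of all 12 landmark genes differed between the vector and the PRODH virus by the interaction test given above. The effect under the vector minus the effect under PRODH, on the log2 scale, was 2.27 for Nppa, 0.70 for Nppb, 5.41 for Myh7, -0.48 for Myh6, 0.81 for Acta1 and -0.77 for Atp2a2. It was 2.28 for Postn, 2.48 for Col1a1, 2.10 for Ccn2, 2.40 for Timp1, -0.30 for Acadm and -0.60 for Ppargc1a. The cause of these differences was not tested.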

How the results depend on the processing

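Scaled by library size alone, 7474 genes were higher and 1198 lower, 2889 and 204 of them by at least 1 on the log2 scale, and 6388 and 897 did not overlap with TAC above and below. A minimum count of 30, which tests fewer genes, left 291 falls of at least 1. Leaving out each library in turn gave 3978 to 4263 higher and 3363 to 3729 lower genes, 1663 to 1857 and 451 to 572 by at least 1, 3838 to 4189 and 3118 to 3510 without overlap, and 11 to 12 landmark genes that differed between viruses (11 with library size alone). DESeq2 with its Wald test called 3947 higher and 3778 lower. Deviations of same-numbered libraries from their group means had correlations of 0.17, -0.00, 0.08 and -0.05, against -0.17 to 0.12 for other pairs. With 4 libraries a group these values cannot decide whether the numbers pair the samples. A replicate block gave 4244 higher and 3696 lower. With library size alone these differences turned positive: Acad10 to 0.094, Actc1 to 0.22, Cacna1c to 0.067, Casq2 to 0.31, Ctsd to 0.33, Hspa8 to 0.31, Itga7 to 0.043, Klf9 to 0.054, Ldha to 0.32, Ogn to 0.15 and Tnnc1 to 0.34. The median of all genes changed sign to -0.0038 (DESeq2 size factors), -0.0033 (DESeq2 Wald test) and 0 (no low-count filter). Ctsd, close to 0, ran from -0.067 to 0.019 with each library left out. Rplp0, close to 0, ran from -0.059 to 0.066 with each library left out and changed sign to -0.0055 (DESeq2 size factors) and -0.0053 (DESeq2 Wald test). Tnnc1, close to 0, ran from -0.046 to 0.032 with each library left out and changed sign to 0.00066 (1 CPM in 4 libraries) and 0.0066 (minimum count 30). Over all named genes and alternatives, 4385 values kept their direction and side of the threshold. With the direction kept, 12 lost the call and 14 gained one. A further 25 changed sign, of which 3 lost and 6 gained a call. Without any 1 library the isoform shares moved the same way, and 3 libraries against 4 cannot reach the threshold. That alternative was chosen after seeing the data. Transcripts of the mitochondrial genome and their copies took most counts, which limits the depth for other genes.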
